A study of Mus musculus with 8 samples.

Results

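Long noncoding RNAs (lncRNAs) are transcripts that carry no long reading frame and are annotated as genes of their own. The 227 expressed lncRNA genes of cultured mast cells were taken from 8 poly-A RNA libraries. Ensembl gene identifiers of the count tables were given their GENCODE biotype, and autosomal lncRNA genes with a mean raw CPM (count times 1000000 over the library total) of 5 or more across all 8 libraries were kept, with 4 imprinted lncRNA genes left out by name. They were 227 of 10171 autosomal lncRNA genes in the tables, of which 6472 had a count in any library. The genes were thus chosen by their level over both groups and not by their fold change, so the level of these genes is a description and not a finding. At the lower edge, Gm16008, 6720407P12Rik and Gm10353 entered with 5.03, 5.03 and 5.01 CPM, and 8430429K09Rik, C230037L18Rik and AW046200 stayed out with 4.996, 4.97 and 4.95 CPM.

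The cells were bone marrow-derived mast cells (BMMCs), which are mast cells grown from the bone marrow of C57BL/6 mice in interleukin-3 for some weeks. Cells of 4 mice received either Mettl3 ribonucleoproteins (RNPs), complexes of Cas9 with a guide RNA against Mettl3 (group Mettl3-RNP, genotype label Mettl3 KO), or were mock transfected (group Pulsed, genotype label Mettl3 WT), so the controls had met no Cas9. There were 4 libraries in each group, all of resting cells, and equal replicate numbers in the groups were treated as pairs. The edited population was not selected and kept some untargeted cells.

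Mettl3 is the catalytic subunit of the nuclear complex that places N6-methyladenosine (m6A) on RNA polymerase II transcripts, and both mRNAs and lncRNAs are substrates. The mark is read by proteins that affect splicing, nuclear retention, export and decay. lncRNAs act in several ways. Some, such as Neat1 and Malat1, stay in the nucleus and organise bodies there, some are spliced to release small nucleolar RNAs (snoRNAs) or microRNAs (miRNAs) from their transcripts, and others act on genes close to their own site of transcription.

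The libraries held 32643260 to 45324826 counts each. Mettl3 itself was measured at 12.3, 9.17, 4.88 and 9.19 CPM in Mettl3-RNP libraries 1 to 4 and at 25.9, 24.5, 11.1 and 26.5 CPM in Pulsed libraries 1 to 4. It fell by 1.30 on the log2 scale (SE 0.11, adjusted p = 0.0054, lower in 4 of 4 pairs). Of 12 mast cell markers 11 passed the expression filter, the list summed to 40477 to 56503 raw CPM in Mettl3-RNP and 45478 to 62602 in Pulsed, and 1 of them, Cpa3, was lower (log2 fold change -0.37, adjusted p = 0.033). Of 7 basophil markers 6 passed the filter, 2 of which (Il18rap and Ifitm1) were lower, Cd200r3 had a log2 fold change of 0.25 (higher in 4 of 4 pairs, adjusted p = 0.15), and the summed list did not overlap between groups (4639 to 5852 against 5882 to 6091 raw CPM). The largest part of that sum was Cyp11a1, which did not pass (mean 3066 CPM in Mettl3-RNP and 3340 in Pulsed). Mcpt8 (1.87 and 2.56 CPM) and Prss34 (0.70 and 1.13 CPM) did not pass either, though lower in 4 of 4 pairs. Macrophage markers summed to 4.68 raw CPM or less in every library (Adgre1 lower, 1 of 3 tested), erythroid markers to 30.3 or less (Car2 lower, 1 of 3), B cell markers to 22.0 or less, T cell markers to 3.09 or less and neutrophil markers to 1.02 or less, with S100a8 and S100a9 at 0 throughout. Over all genes tested, 3.74% passed the same test. The part of these markers in the lncRNA results was not tested.

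The expressed lncRNAs spanned more than 2 orders of magnitude. The median of the mean raw CPM was 10.9; 14 genes lay over 100 CPM, 114 from 10 to 100 and 99 under 10. Neat1 and Malat1 came first, followed by Gm6093, E330020D12Rik, Oip5os1 and Mir142hg. All 227 passed the expression filter of the test, 208 reached 5 CPM in the mean of each group, 7 did so in Mettl3-RNP only and 12 in Pulsed only. In 127 of them every library stood at 5 CPM or more. By name, 95 were predicted genes of the Gm kind, 80 of the Rik kind and 13 were antisense transcripts ending in os. Exons of 153 overlapped an exon of another gene on either strand, 139 of them on the opposite strand, which left 74 with no overlap. Whether reads were counted by strand is not given in the sources used here, so reads of an lncRNA and of a gene whose exons it overlaps could not be told apart. On their longest annotated transcript the lncRNAs had a median of 0.283 exon junctions per kb, against 1.86 for the 9276 protein-coding genes of the same minimum level, and a GC content of 47.6% against 49.0%. The longest transcript can be an unspliced one, and it held 0 junctions in Gas5 and Snhg1. By the transcript with most exons, 119 of the 227 lncRNAs had 4 or more exons and 33 had 1.

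**Figure D1:**
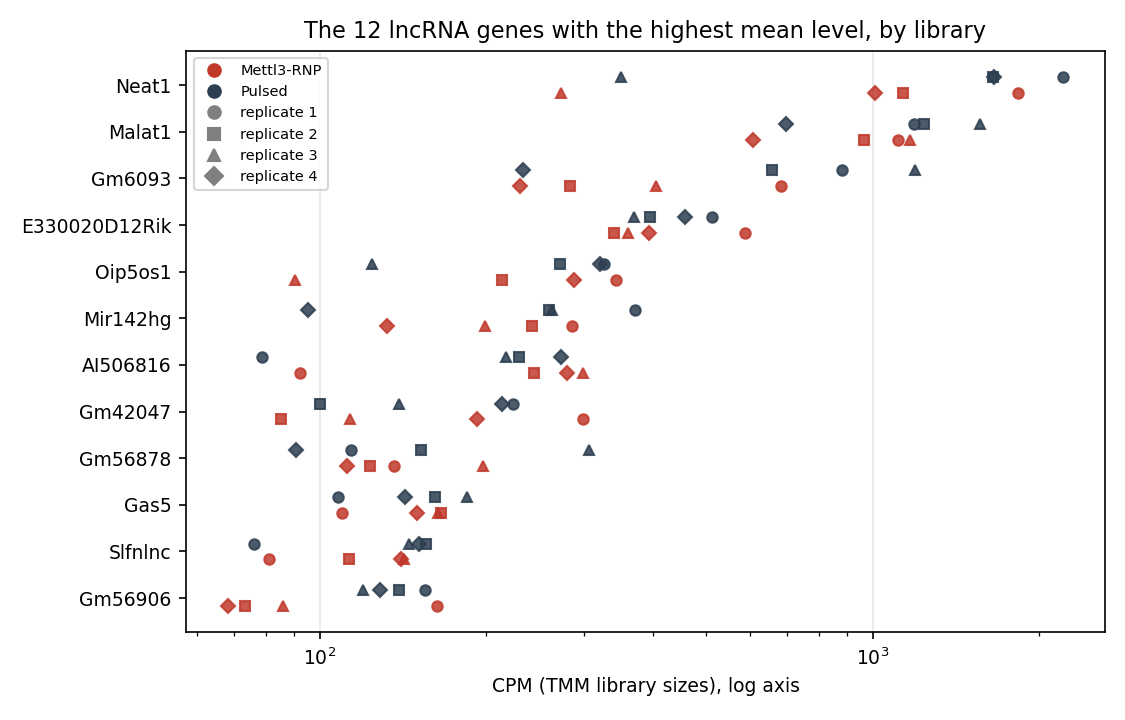
Level of the 12 lncRNA genes with the highest mean, in CPM on TMM library sizes (log axis), with 1 point per library, coloured by group and shaped by replicate number. Neat1 in both libraries of replicate 3 (273 and 351 CPM) lay apart from its other 6 libraries (1010.3 to 2208 CPM).

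The first question was how much of the RNA lay on lncRNAs. They took 1.05, 0.755, 0.607 and 0.754% of all counts in Mettl3-RNP libraries 1 to 4 and 1.10, 0.919, 0.733 and 0.857% in the Pulsed libraries. The share was lower in Mettl3-RNP in 4 of 4 pairs, while the groups overlapped (0.791% ± 0.185 against 0.901% ± 0.151, SD, n = 4). A two-sided exact sign-flip permutation test of the paired log2 ratios gave p = 0.125, the smallest that 4 pairs allow. Without the 3 lncRNAs of the highest level the mean log2 ratio moved from -0.20 to -0.06, with 3 of 4 pairs lower (exact permutation p = 0.25). In bulk RNA, fewer copies per cell and fewer cells that make the transcript cannot be told apart.

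The paired comparison was then made gene by gene. Adjusted p-values are from edgeR's quasi-likelihood test with the replicate number as a block, corrected by the Benjamini-Hochberg method over all 14942 genes tested. With the threshold set at 0.05, 22 of the 227 lncRNAs (9.69%) differed, 13 higher and 9 lower in Mettl3-RNP, where the background was 3.74% of all genes tested (2.35% higher and 1.39% lower). Among the 9276 protein-coding genes at the same minimum level it was 4.98%. A lncRNA that reached the minimum only through its higher group was favoured to differ by the choice of genes. There were 7 of these for Mettl3-RNP and 12 for Pulsed, and 4 of the 22 calls were among them. The 4 were D630033O11Rik, with a mean under 5 CPM in Pulsed, and Gm47863, 6330403L08Rik and 4933406I18Rik, with a mean under 5 CPM in Mettl3-RNP. Among the 208 lncRNAs at 5 CPM or more in each group mean, an alternative chosen after seeing the data, 18 passed (8.65%, 12 higher and 6 lower), where the background was 4.89% of genes at that level in each group. With a fold change of at least 1.5 as well, 12 lncRNAs passed, 7 higher and 5 lower, against 2.06% of all genes tested (1.24% higher and 0.816% lower), and 8 of them were at 5 CPM or more in each group mean. All 22 moved the same way in 4 of 4 pairs. Leaving out the pairs one at a time left 6, 2, 15 and 11 of the 22 calls for replicates 1 to 4. All 22 fold changes stayed on the same side of 0, which had little room to turn with 4 of 4 pairs alike. Without replicate 2 only D630033O11Rik and Gm37233 remained. Without the replicate block no lncRNA passed (0 of 227, smallest adjusted p = 0.43 by edgeR), although 10 had an unadjusted p under 0.05; the background in that fit was 0% of all genes, Mettl3 included. The paired fits by DESeq2's Wald test and limma-voom called 45 and 21, with backgrounds of 11.7% and 4.3%.

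As a group the lncRNAs lay slightly below all genes tested, a difference that is described here and was not tested. Their median log2 fold change was -0.07, against -0.001 for all genes tested, and 142 of 227 had a fitted value below 0. The pair medians were 0.05, -0.16, -0.13 and -0.04 for replicates 1 to 4, so pair 1 lay on the other side of 0 from the other pairs. Lower in 4 of 4 pairs were 49 lncRNAs (21.6%), with a background of 18.7% among all genes tested at 5 CPM or more, and higher in 4 of 4 pairs were 35 (15.4%, background 19.1%). The values of the Mettl3-RNP and Pulsed libraries did not overlap in 5 lncRNAs, Gm57076, G430095P16Rik, D630033O11Rik, Gm47863 and Norad (2.2%, background 3.23% of all genes tested); D630033O11Rik and Gm47863 had reached 5 CPM through 1 group only. Most lncRNAs moved little: 129 of 227 had a log2 fold change within 0.25 of 0, with a median SE of 0.13.

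**Figure D2:**
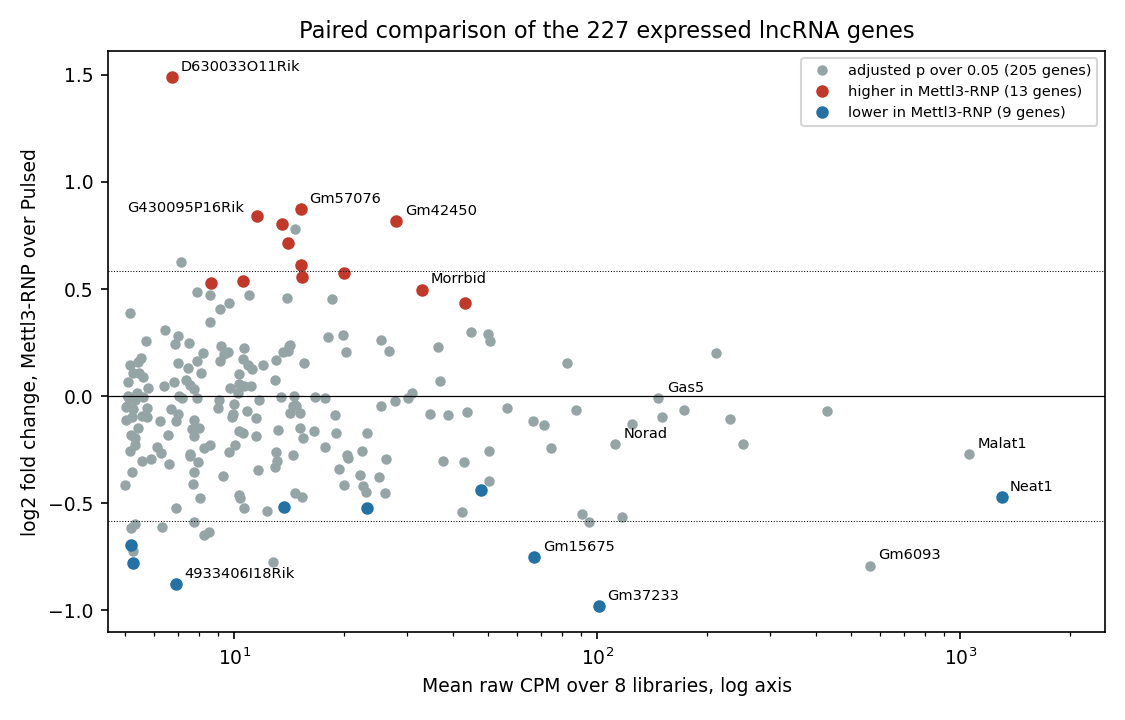
log2 fold change of each of the 227 lncRNA genes (Mettl3-RNP over Pulsed, edgeR paired fit) against its mean raw CPM over 8 libraries (log axis), with dotted lines at a fold change of 1.5. The 13 genes past an adjusted p of 0.05 on the higher side reached a log2 fold change of 1.49 (D630033O11Rik), and the 9 on the lower side reached -0.98 (Gm37233).

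The nuclear body list holds the pair of lncRNAs with the highest levels, Neat1 and Malat1. Of its 6 genes 3 were expressed at 5 CPM or more, the third being Norad, which is mainly cytoplasmic and does not share the location that names the list. Neat1 passed the test, Malat1 and Norad did not, and the median log2 fold change of the 3 was -0.27. The called share was 33.3%, against 9.69% of all 227 lncRNAs and 3.74% of all genes tested. Neat1 is the scaffold of paraspeckles, nuclear bodies that hold edited and retained RNAs. It stood at 1835, 1133, 273 and 1010.3 CPM in Mettl3-RNP libraries 1 to 4 and at 2208, 1648, 351 and 1658 CPM in Pulsed libraries 1 to 4. Each Mettl3-RNP library was below its own Pulsed partner, while the groups overlapped, and replicate 3 was the lowest in both. Neat1 fell by 0.47 on the log2 scale (SE 0.09, adjusted p = 0.033), a 1.39-fold lower level. Where its exons overlap another gene, reads could not be told apart. With all 4 pairs of Neat1 lower, the sign could hardly turn when 1 pair was left out, and it did not. The adjusted p rose to 0.15, 0.058 and 0.18 without replicates 2, 3 and 4. The gene lies on the minus strand at chr19:5874736-5897132 (GRCm39). It makes a short isoform with a poly-A tail and a long isoform without one, which share their first part, and gene counts of poly-A libraries do not separate them.

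Malat1 is the abundant lncRNA of nuclear speckles, the bodies that store splicing factors, and its gene neighbours Neat1 (chr19:5845717-5853602, minus strand). Its levels were 1111, 962, 1166 and 607 CPM in Mettl3-RNP and 1189, 1239, 1562 and 695 CPM in Pulsed. All 4 pairs were lower, with a log2 fold change of -0.27 (SE 0.08) that did not pass edgeR's test (adjusted p = 0.095) and passed by DESeq2's Wald test. Replicate 4 held the lowest value in each group. Norad, which binds Pumilio proteins in the cytoplasm, was at 107, 96.4, 104 and 106 CPM in Mettl3-RNP and 109, 122, 138 and 114 CPM in Pulsed, so that the groups did not overlap. Its log2 fold change of -0.22 (SE 0.08) had an adjusted p of 0.16.

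GGACT is the most typical pentamer of the m6A consensus, methylated at its A. On the sense strand of the longest annotated transcript, 202 of the 227 lncRNAs (89.0%) and 96.8% of the protein-coding genes of the same level held it at least once, with medians of 0.951 and 1.02 per kb. Neat1 held it 24 times (1.07 per kb), Gm37233 15 times (2.05), Malat1 9 times (1.14), D630033O11Rik 4 times (1.45) and Norad not at all. The Neat1 transcript searched was that of the long isoform, with 22397 bases. Norad instead held the Pumilio motif TGTANATA 11 times, the highest number of the 227, of which the next had 8 and 24.7% had any. A match is a description of the letters, and methylation was not measured in these libraries. The stretches below are 120 bases of the transcribed strand, from GRCm39, with GGACT in capitals for Neat1 (chr19:5895072-5895191, minus), Malat1 (chr19:5851482-5851601, minus), Gm37233 (chr1:34471872-34471991, minus) and D630033O11Rik (chr9:43154932-43155051, plus), and TGTANATA in capitals for Norad (chr2:156233263-156233382, minus). They show 3 lncRNAs that passed the test beside 2 that did not. Each stretch was taken from those with most matches in its transcript, so it holds more of the motif than a typical stretch.
Neat1: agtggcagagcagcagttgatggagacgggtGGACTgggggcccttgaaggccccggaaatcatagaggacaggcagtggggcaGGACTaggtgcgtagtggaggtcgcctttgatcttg
Malat1: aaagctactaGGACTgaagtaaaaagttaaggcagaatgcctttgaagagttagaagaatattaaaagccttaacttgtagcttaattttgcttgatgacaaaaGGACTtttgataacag
Gm37233: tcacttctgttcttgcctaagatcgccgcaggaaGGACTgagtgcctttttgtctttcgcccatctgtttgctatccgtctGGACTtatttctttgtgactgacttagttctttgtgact
D630033O11Rik: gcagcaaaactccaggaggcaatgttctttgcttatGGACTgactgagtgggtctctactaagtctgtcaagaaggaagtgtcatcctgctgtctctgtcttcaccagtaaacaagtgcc
Norad: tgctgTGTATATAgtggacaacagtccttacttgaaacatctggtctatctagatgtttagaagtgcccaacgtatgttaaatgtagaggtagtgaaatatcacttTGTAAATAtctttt
Across the 227 lncRNAs, Spearman's rho between GGACT per kb and the log2 fold change was -0.13, against 0.10 across the protein-coding genes, both given as descriptions over genes that share the same 8 libraries. In 3 equal groups by GGACT per kb, from the lowest to the highest, the median log2 fold changes were -0.01, -0.08 and -0.09 for lncRNAs and -0.03, -0.01 and 0.02 for protein-coding genes.

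D630033O11Rik, a spliced lncRNA of 8 exons (chr9:43154896-43191676, plus strand), had the highest fold change. It was a member through the Mettl3-RNP group only, so its difference is a description. It stood at 11.9, 10.9, 6.31 and 10.2 CPM in Mettl3-RNP libraries 1 to 4 and at 4.35, 3.02, 2.93 and 3.50 CPM in Pulsed. The groups did not overlap, and the lowest value in each was that of replicate 3. It was 2.81-fold higher (log2 fold change 1.49, SE 0.15, adjusted p = 0.0076) and passed without any one pair (log2 fold change 1.36 to 1.61). None of its exons overlapped another gene. The closest coding gene, Oaf, had a log2 fold change of 0.25 (adjusted p = 0.34).

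The other 3 called lncRNAs without exon overlap were also higher. Gm57076, 38847 bp from Map3k7, was at 19.5, 21.6, 17.3 and 19.7 CPM in Mettl3-RNP and 8.96, 10.1, 10.3 and 13.6 CPM in Pulsed, without overlap. It was 1.83-fold higher (log2 fold change 0.87, SE 0.12, adjusted p = 0.018), and Map3k7, a kinase of cytokine signalling, had a log2 fold change of 0.13 (adjusted p = 0.37). Gm42450 runs antisense across the gene of the cytokine Il6 without touching its exons (chr5:30091726-30245857, minus strand). Its libraries held 61.3, 27.4, 7.35 and 45.7 CPM in Mettl3-RNP and 33.0, 16.6, 6.06 and 19.1 CPM in Pulsed, a wide range over replicates within each group. It was 1.76-fold higher (log2 fold change 0.82, SE 0.14, adjusted p = 0.029), while Il6 had a log2 fold change of 0.04 (SE 0.14, adjusted p = 0.89). 2610035D17Rik, 41736 bp from Slc39a11, had a log2 fold change of 0.54 (adjusted p = 0.035). Among the 74 lncRNAs without exon overlap these 4 were the only calls (5.41%, background 5.13% of genes tested at 5 CPM or more), while 18 of the 153 with exon overlap were called (11.8%). The share without overlap was thus near the background.

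Gm37233 was the most strongly lowered (chr1:34444160-34474254, minus strand), with exons that overlap another gene, where reads could not be told apart. Its levels were 117, 50.9, 47.3 and 56.0 CPM in Mettl3-RNP libraries 1 to 4 against 192, 157, 81.3 and 98.1 CPM in Pulsed. Library 1 was the highest of both groups and made them overlap, although each pair was lower. It was 1.97-fold lower (log2 fold change -0.98, SE 0.15, adjusted p = 0.020) and passed without any one pair (log2 fold change -0.77 to -1.11). The annotation places the miRNA gene Mir5103 within it, and its coding neighbour Ccdc115, an assembly factor of the vacuolar proton pump, had a log2 fold change of -0.26 (adjusted p = 0.10). Gm15675, next to the complement regulator gene Cd55, was at 79.0, 42.9, 13.1 and 58.7 CPM in Mettl3-RNP and 129, 102, 19.6 and 79.8 CPM in Pulsed. It was 1.68-fold lower (log2 fold change -0.75, SE 0.13, adjusted p = 0.027), where Cd55 had a log2 fold change of -0.07 (adjusted p = 0.78). Its exons overlap those of Cd55os on the opposite strand.

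**Figure D3:**
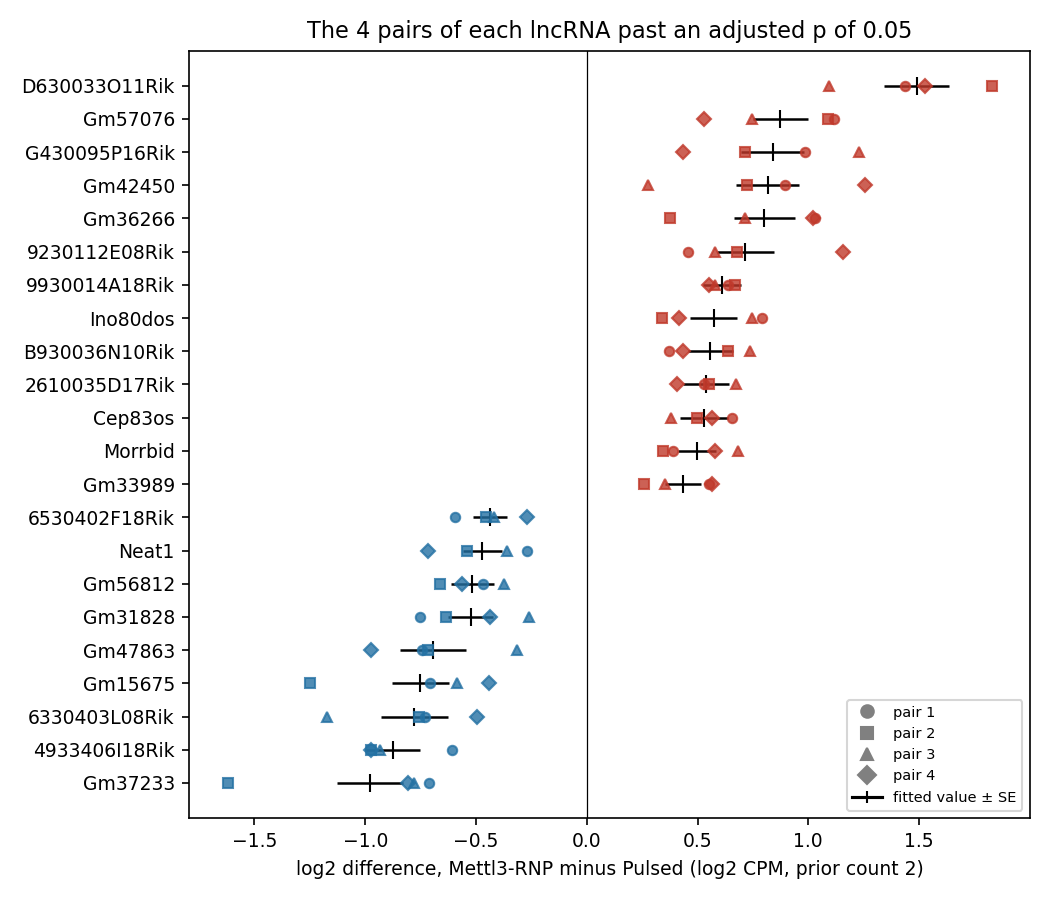
log2 difference of each of the 4 pairs (Mettl3-RNP minus Pulsed, log2 CPM with a prior count of 2; symbols by replicate number) and the fitted log2 fold change ± SE for the 22 lncRNA genes past an adjusted p of 0.05. All 4 pairs of each gene lay on one side of 0, and for Gm37233 pair 2 reached -1.62 while the others lay between -0.81 and -0.71.

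For 14 of the 22 called lncRNAs, exons overlapped a gene on the opposite strand, and with overlaps on the same strand the number was 18. In 3 of these the coding gene that they overlap was called as well and in the same direction. 9230112E08Rik, a single exon within the span of the collagen gene Col20a1 on the same strand, was at 14.0, 15.6, 25.7 and 14.8 CPM in Mettl3-RNP and 10.1, 9.73, 17.2 and 6.59 CPM in Pulsed (log2 fold change 0.72, SE 0.13, adjusted p = 0.032). Col20a1 rose more, from a mean of 1.51 to 7.73 CPM (log2 fold change 2.39, SE 0.22, adjusted p = 0.0056). 9930014A18Rik, antisense to Lratd2, was at 11.3, 17.8, 23.5 and 21.6 CPM against 7.25, 11.2, 15.7 and 14.7 CPM (log2 fold change 0.61, SE 0.09, adjusted p = 0.018), with Lratd2 at 0.68 (adjusted p = 0.011). B930036N10Rik, antisense to the mRNA export adaptor gene Alyref2, held 7.82, 10.4, 54.7 and 6.26 CPM against 6.04, 6.67, 32.8 and 4.62 CPM. Both of its replicate 3 libraries stood far above the rest. Its log2 fold change was 0.56 (adjusted p = 0.032) and that of Alyref2 0.71 (adjusted p = 0.022). Reads of the lncRNA and of the coding gene cannot be told apart at these 3 loci, where exons overlap on the same strand at Col20a1 and on opposite strands, with the strand setting unknown, at Lratd2 and Alyref2.

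In other antisense pairs the coding gene did not pass the test. 4933406I18Rik lies antisense to Pde3b, a cyclic nucleotide phosphodiesterase gene. Its levels were 6.59, 4.43, 5.54 and 3.19 CPM in Mettl3-RNP and 10.1, 8.76, 10.7 and 6.32 CPM in Pulsed. It was 1.84-fold lower (log2 fold change -0.88, SE 0.12, adjusted p = 0.018), where Pde3b had a log2 fold change of -0.20 (adjusted p = 0.13). As 4933406I18Rik was a member through the Pulsed group only, its difference is a description. G430095P16Rik overlaps Nfix, which encodes a transcription factor of blood progenitors, and was at 20.4, 12.7, 10.6 and 14.0 CPM against 10.3, 7.72, 4.49 and 10.3 CPM, with no overlap between the groups. It was 1.79-fold higher (adjusted p = 0.027), and Nfix had a log2 fold change of 0.32 (adjusted p = 0.16). Gm47863, antisense to Jdp2, a repressor of AP-1, was at 3.39, 4.06, 4.74 and 3.70 CPM against 5.70, 6.70, 5.91 and 7.33 CPM, again without overlap, and was a member through the Pulsed group only. Its log2 fold change was -0.69 (adjusted p = 0.048) and that of Jdp2 0.02 (adjusted p = 0.93).

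A further 8 lncRNAs passed the test. Higher were Gm36266 (log2 fold change 0.80), Ino80dos (0.57), Cep83os (0.53) and Gm33989 (0.43), with adjusted p-values of 0.027, 0.033, 0.041 and 0.033. Exons of Ino80dos overlap, on the opposite strand, those of Ino80d, which encodes a chromatin remodeller subunit, and of Ndufs1, a respiratory chain gene with a log2 fold change of -0.15 (adjusted p = 0.27). Cep83os is antisense to the centriole protein gene Cep83, which had a log2 fold change of 0.25 (adjusted p = 0.17). Lower were 6330403L08Rik (-0.78), Gm31828 (-0.52), Gm56812 (-0.52) and 6530402F18Rik (-0.44), with adjusted p-values of 0.036, 0.035, 0.033 and 0.029. Gm31828 was the one called lncRNA whose coding neighbour was called the other way: Tusc1, 83328 bp away, had a log2 fold change of 0.58 (adjusted p = 0.020). 6330403L08Rik was a member through the Pulsed group only, so its difference is a description. It overlaps exons of the growth factor gene Pdgfa, which had a log2 fold change of 0.07 (adjusted p = 0.90).

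Over all lncRNAs, 203 had a tested protein-coding neighbour, 92 of which had a fold change of the same sign. Spearman's rho between lncRNA and neighbour was 0.06 and Pearson's r 0.16, as descriptions across genes of the same libraries. Of the 22 called lncRNAs, 14 had a neighbour on the same side of 0. The neighbour was itself called for 7 of the 203 (3.45%), a share near the 3.74% of all genes tested, and 4 of these lay beside a called lncRNA.

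Morrbid is a myeloid lncRNA that restrains transcription of the neighbouring proapoptotic gene Bcl2l11 (Bim) in short-lived myeloid cells. Its 4 Mettl3-RNP libraries held 35.7, 43.1, 27.8 and 45.0 CPM and the Pulsed libraries 27.2, 33.9, 17.3 and 30.2 CPM. Each pair was higher, and replicate 3 was the lowest in its group. Morrbid rose 1.41-fold (log2 fold change 0.50, SE 0.08, adjusted p = 0.027), with an adjusted p of 0.092, 0.097 and 0.096 without replicates 1, 2 and 4. Reads of Morrbid and of a gene whose exons it overlaps could not be told apart. Bcl2l11 had a log2 fold change of 0.30 (SE 0.13, adjusted p = 0.21), with means of 13.8 CPM in Mettl3-RNP and 11.2 CPM in Pulsed. Of 16 lncRNAs listed for immune and inflammatory functions, 4 were expressed at 5 CPM: Morrbid was higher, Neat1 lower, and Malat1 and Mir142hg did not pass, with a median of -0.19. The called share was 50%, against 9.69% of all 227 lncRNAs and 3.74% of all genes tested.

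The lncRNAs that host snoRNAs were the largest class with a known product. Small nucleolar RNAs guide modification of ribosomal RNA and are cut out of the introns of these hosts, whose spliced RNA is often short-lived. Of 21 listed hosts 15 were expressed, and none rose or fell in edgeR's paired test, where Snhg17 came closest with an adjusted p of 0.071; 1 of the 15 had an unadjusted p under 0.05, DESeq2's Wald test called 1 (Snhg17) and limma-voom 0. Their median log2 fold change was -0.008, with 5 fitted above and 10 below 0. All 20 lncRNAs that hold an annotated snoRNA or scaRNA gave 0 calls by edgeR, 2 at an unadjusted p under 0.05, 1 by DESeq2 and 0 by limma-voom. Gas5, the most abundant host, was at 110, 166, 164 and 150.1 CPM in Mettl3-RNP and 108, 161, 185 and 143 CPM in Pulsed. Replicate 1 was the lowest in both groups and the difference (log2 fold change -0.01, SE 0.07, adjusted p = 0.96) was small beside that spread. Snhg17 was at 16.3, 17.8, 30.9 and 12.8 CPM against 16.996, 24.6, 47.9 and 18.2 CPM (log2 fold change -0.42, SE 0.11, lower in 4 of 4 pairs). The remaining hosts lay between -0.27 (Snhg6) and 0.16 (Zfas1), and all 4 pairs of Zfas1 were higher (adjusted p = 0.43).

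Of 15 listed miRNA hosts 5 were expressed, and none of them passed by edgeR, DESeq2 or limma-voom (1 at an unadjusted p under 0.05 in edgeR), with a median log2 fold change of 0.23. Of the 14 lncRNAs that hold an annotated miRNA gene 2 were called (14.3%, against 9.69% of all 227 lncRNAs and 3.74% of all genes tested), Ino80dos higher and Gm37233 lower. Mir142hg, the host of the blood cell miRNA miR-142, was at 286, 242, 199 and 132 CPM in Mettl3-RNP and 371, 259.8, 264 and 95.3 CPM in Pulsed (log2 fold change -0.11, SE 0.14, adjusted p = 0.71). Pair 4 was higher and the other 3 lower. Dleu2 was higher in 4 of 4 pairs (log2 fold change 0.29, adjusted p = 0.20), and Mir22hg and Mir17hg had log2 fold changes of 0.23 and 0.23 with adjusted p-values of 0.27 and 0.52. A330023F24Rik, listed as the host of miR-29b-2 and matched by the miRNA gene inside it, had a log2 fold change of 0.41 (adjusted p = 0.24). A further host, named here after its value was seen, was 1700016P03Rik (0.20, adjusted p = 0.75). The annotation placed 23 miRNA genes inside the 227 lncRNAs, in 14 hosts, and 18 had a mature sequence in the RefSeq table of GRCm38.p6. The sequences below show which hosts give rise to miRNAs with a common seed (bases 2 to 8, in capitals), and thus with largely common targets. Dleu2 gives 2 miRNAs of the seed AGCAGCA, Mir17hg 2 pairs with the seeds AAAGUGC and GUGCAAA, A330023F24Rik a pair with AGCACCA and 1700016P03Rik a pair with AACAGUC.
miR-142a-3p (Mir142hg): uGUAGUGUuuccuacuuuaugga
miR-22-3p (Mir22hg): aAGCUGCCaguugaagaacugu
miR-15a-5p (Dleu2): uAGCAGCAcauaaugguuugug
miR-16-5p (Dleu2): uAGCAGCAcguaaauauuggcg
miR-17-5p (Mir17hg): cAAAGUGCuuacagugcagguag
miR-20a-5p (Mir17hg): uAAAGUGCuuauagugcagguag
miR-19a-3p (Mir17hg): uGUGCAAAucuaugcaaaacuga
miR-19b-3p (Mir17hg): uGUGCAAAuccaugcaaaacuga
miR-29b-3p (A330023F24Rik): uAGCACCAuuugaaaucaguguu
miR-29c-3p (A330023F24Rik): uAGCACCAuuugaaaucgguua
miR-132-3p (1700016P03Rik): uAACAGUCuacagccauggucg
miR-212-3p (1700016P03Rik): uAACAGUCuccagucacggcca
Mature miRNAs were not measured in these libraries, so the values are those of host RNA only.

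The lists of p53 and DNA damage lncRNAs and of proliferation lncRNAs share genes with those above. Of 8 listed for p53 and DNA damage, 5 were expressed and 1, Neat1, was lower, with a median of -0.19. That was 20% of the 5, against 9.69% of all 227 lncRNAs and 3.74% of all genes tested. Trp53cor1 (lincRNA-p21), a target of p53 beside Cdkn1a, had a log2 fold change of -0.02 (adjusted p = 0.95), and Pvt1, beside Myc, -0.19 (adjusted p = 0.27). Of 10 listed for proliferation, 7 were expressed and none passed edgeR's test (smallest adjusted p = 0.16, 3 at an unadjusted p under 0.05), DESeq2's or limma-voom's, with a median of -0.08. Oip5os1 (Cyrano), which lowers the level of miR-7, was at 343, 213, 90.3 and 288 CPM in Mettl3-RNP and 326, 272, 124 and 321 CPM in Pulsed (log2 fold change -0.22, SE 0.10, adjusted p = 0.22). Lockd, downstream of the cell cycle inhibitor gene Cdkn1b, had a log2 fold change of 0.16 (adjusted p = 0.53).

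**Figure D4:**
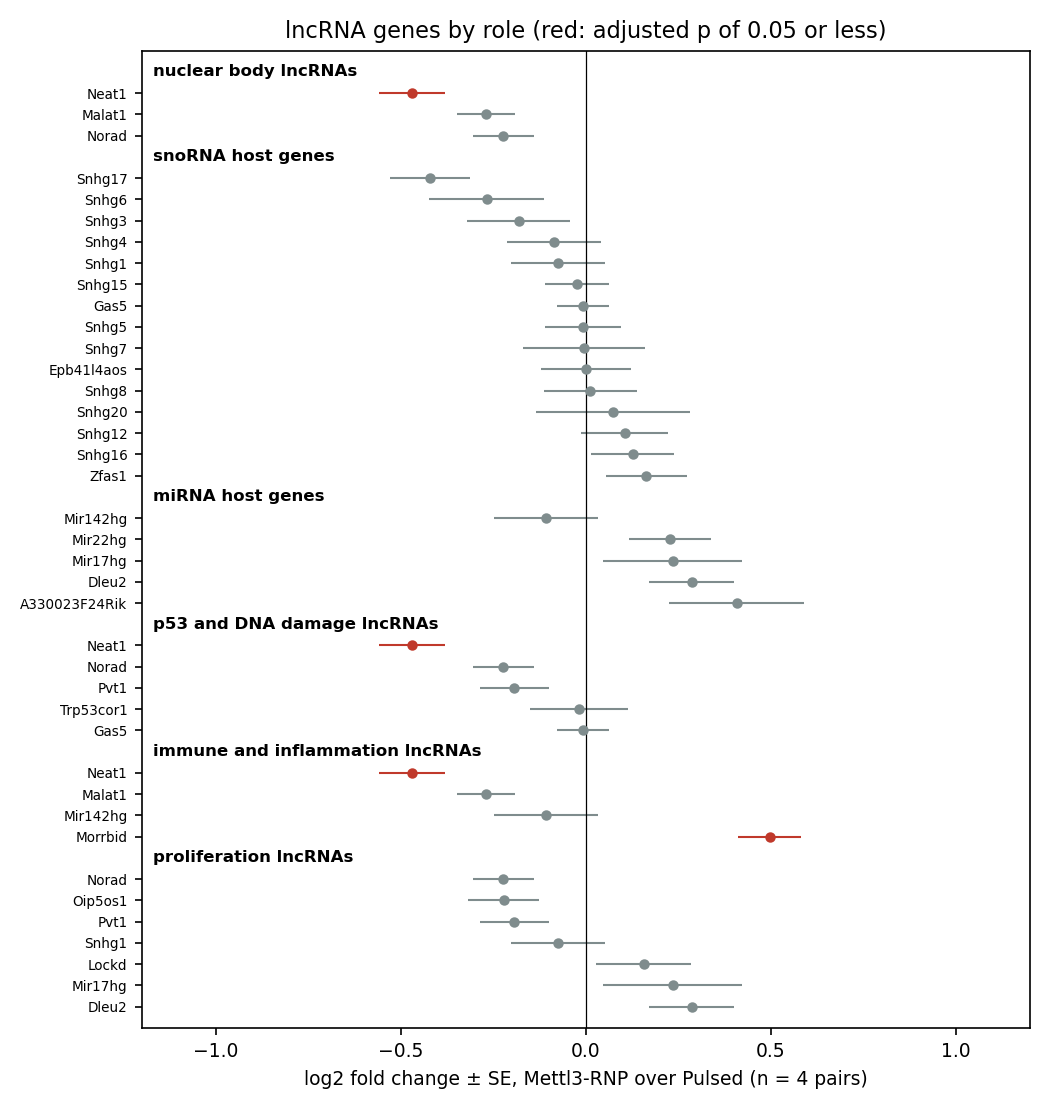
Fitted log2 fold change ± SE (n = 4 pairs) of the expressed lncRNA genes by role list, with genes past an adjusted p of 0.05 in red. Genes on several lists appear in each, and Norad, mainly cytoplasmic, stands on the nuclear body list. Neat1 (-0.47) and Morrbid (0.50) passed, and the 15 snoRNA hosts lay between -0.42 and 0.16.

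Several abundant lncRNAs on no role list did not pass the test. Gm6093 (chr13:33746469-33753300, minus strand) was at 684, 283, 405 and 230.0 CPM in Mettl3-RNP libraries 1 to 4 and at 882, 658, 1191 and 233 CPM in Pulsed. Its log2 differences ranged from -0.02 in pair 4 to -1.56 in pair 3, and the fitted log2 fold change of -0.79 (SE 0.24) had an adjusted p of 0.10. Gm56906 had a log2 fold change of -0.56 (adjusted p = 0.090), with pair 1 higher and the other 3 lower. E330020D12Rik (-0.07), AI506816 (0.20), Gm42047 (-0.06), Gm56878 (-0.10) and Slfnlnc (-0.13) had adjusted p-values of 0.21 to 0.81, the lowest being that of AI506816, which was higher in 4 of 4 pairs. Gm45606, antisense to Slc43a2, was among the 5 lowest fold changes (-0.77) with an adjusted p of 0.070.

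Genes for proteins that bind, make or degrade these RNAs were read from the same fit. None of 15 paraspeckle protein genes passed edgeR's test (median log2 fold change -0.06, smallest adjusted p = 0.10, 3 at an unadjusted p under 0.05), and DESeq2 and limma-voom called none either. Of 15 genes for snoRNA-protein core and assembly factors, 2 were lower: Nop58, a core protein of box C/D particles (log2 fold change -0.39, adjusted p = 0.027), and Ruvbl2, an assembly ATPase (-0.34, adjusted p = 0.0498). Their share of 13.3% compares with 4.98% of protein-coding genes at 5 CPM or more. The list had a median of -0.17, with 12 of 15 fitted below 0, 6 at an unadjusted p under 0.05, and 4 calls by DESeq2 and 3 by limma-voom. None of 15 nonsense-mediated decay genes passed in edgeR's test (median 0.00, smallest adjusted p = 0.077, 1 at an unadjusted p under 0.05), while DESeq2 called 1 (Smg8) and limma-voom 0. Of 19 genes of the nuclear exosome and its adaptors 1 was lower, Exosc5 (log2 fold change -0.36, adjusted p = 0.048), a share of 5.26% near the 4.98% of protein-coding genes at 5 CPM or more. In that list 6 had an unadjusted p under 0.05, limma-voom called 1, and DESeq2 called 2, Exosc5 and Rbm7, the latter at 0.24 and higher in 4 of 4 pairs (edgeR adjusted p = 0.083). Of 8 m6A writer complex genes 4 passed, a share of 50% beside the same 4.98%. The 3 higher were Rbm15 (0.59), Wtap (0.50) and Virma (0.36), with adjusted p-values of 0.029, 0.016 and 0.045. Mettl3 itself was lower, and Mettl14 was at -0.05 (adjusted p = 0.83).

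Most of the spread of lncRNA levels lay between replicate numbers. In the median lncRNA 86.4% of the squared deviations of log2 CPM were between replicate numbers and 4.96% between groups, and only 14 of 227 had more between groups. The range of the 4 replicate means was 1 or more on the log2 scale in 132 lncRNAs, with a median of 1.12, against a median size of the group difference of 0.22. Replicate 3 held the lowest mean in 124 and the highest in 67, and replicate 1 the highest in 104. Libraries of the same number deviated together from their group means, with correlations over the 227 lncRNAs of 0.90, 0.61, 0.93 and 0.87 for replicates 1 to 4, where libraries of different numbers reached 0.31 at most. The median log2 CPM of 16 immediate early genes differed between replicates as well, with 5.28 and 6.04 in replicate 1, 7.83 and 7.12 in replicate 2, 9.57 and 9.09 in replicate 3 and 2.14 and 1.71 in replicate 4 (Mettl3-RNP and Pulsed), and its part in the lncRNA levels was not tested. None of the 16 genes passed in the paired comparison by edgeR (smallest adjusted p = 0.13, 3 at an unadjusted p under 0.05), 1 passed by DESeq2 and 0 by limma-voom.

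**Figure D5:**
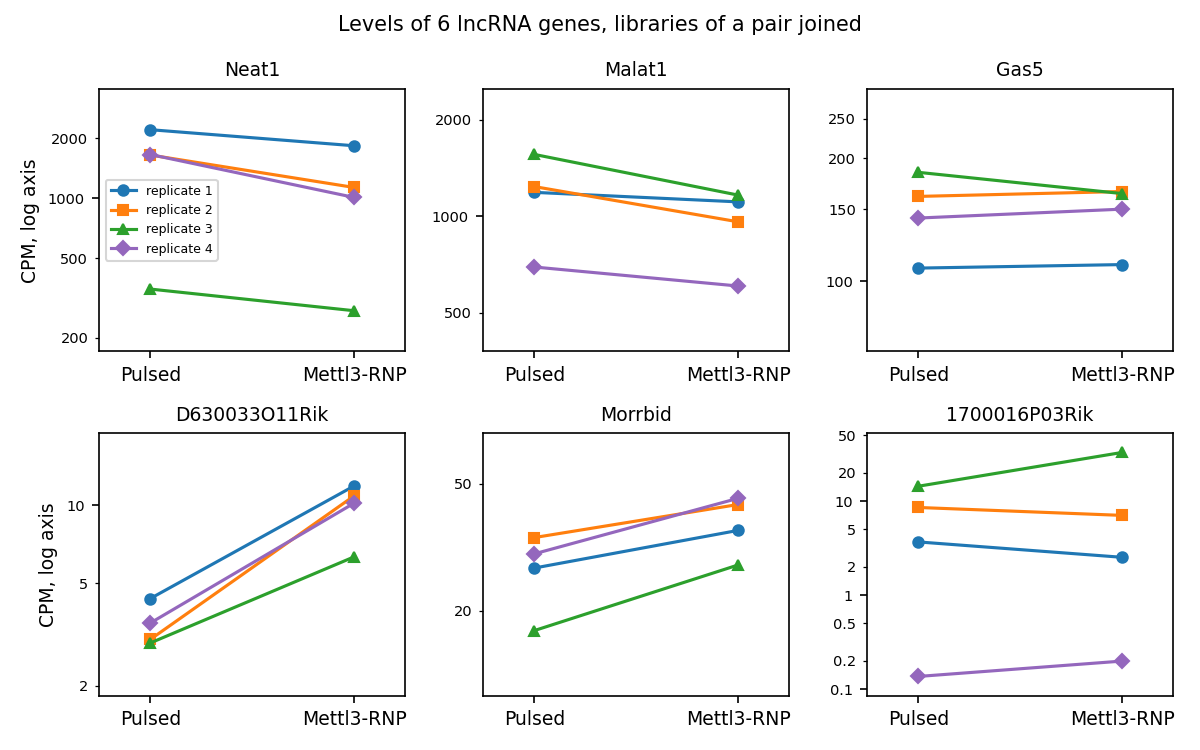
CPM (log axis) of 6 lncRNA genes in Pulsed and Mettl3-RNP, with the 2 libraries of a replicate number joined. Neat1 fell and Morrbid and D630033O11Rik rose in all 4 pairs, while the 4 replicates of 1700016P03Rik ranged from 0.137 to 32.9 CPM.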

How the data were processed

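Poly-A RNA of 4 Mettl3-RNP and 4 Pulsed BMMC cultures was sequenced by the authors, who aligned reads with HISAT2 2.2.1 to GRCm39 and assigned them to Ensembl genes by featureCounts 2.0.1. The deposited values are whole-number counts with no normalization. Settings for strand and multimapped reads are not given in the sources used here. The study's methods name a later correction for batch effects (removeBatchEffect), which is not in these counts, without listing the batches. Biotypes and exons are from GENCODE M39, a newer annotation of the same build (98.7% of 56748 identifiers named). Counts were tested in R 4.3.3 with edgeR 4.0.16 (quasi-likelihood, TMM, filterByExpr, replicate number as a block); the fit was tested on simulated data. DESeq2 1.42.0 and limma 3.58.1 were alternatives. CPM per library uses TMM sizes. p-values measure only the spread between these cultures.

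The pairing was read from the series text, which names 4 mice for the 8 samples, and from the shared numbers. Over all genes tested, deviations of libraries of the same number correlated by 0.53, 0.07, 0.74 and 0.58, and libraries of different numbers by 0.25 at most, so that pair 2 lay below the highest mismatched pair. The members and lists were chosen with earlier results of these data known. Named were lncRNAs past an adjusted p of 0.05, the 12 of highest level, the 5 highest and 5 lowest fold changes and those on a role list.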

Additional observations from a re-analysis of the deposited data

Results flagged for a closer look

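Single libraries far from the other 3 of their group were looked for in 124 groups of 4 values, of which chance alone marks about 1 in 20 (6.2). There were 9, and 6 of them were libraries of replicate 3. In that replicate B930036N10Rik stood at 54.7 CPM in Mettl3-RNP (others 6.26 to 10.4) and at 32.8 CPM in Pulsed (others 4.62 to 6.67), and 9230112E08Rik at 25.7 CPM in Mettl3-RNP (others 14.0 to 15.6). The Pulsed library of replicate 3 also held the snoRNA hosts Snhg16 at 29.2 CPM (others 4.13 to 7.48) and Snhg12 at 15.5 CPM (others 7.82 to 8.51), and Mettl3 at 11.1 CPM (others 24.5 to 26.5). In replicate 1, Gm37233 was high in Mettl3-RNP at 117 CPM (others 47.3 to 56.0), Lockd was low there at 10.6 CPM (others 17.5 to 18.8), and Slfnlnc was low in Pulsed at 76.1 CPM (others 145 to 156).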

How the results depend on the processing

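The count of 22 lncRNAs past an adjusted p of 0.05 (12 with a 1.5-fold change) became 45 with DESeq2's Wald test, 42 (22) with every gene of at least 1 count, 0 (0) with no replicate block, 4 (3) among lncRNAs with no exon overlap, and 2 to 18 (2 to 14) with 1 pair left out. Calls ran 18 higher to 27 lower with DESeq2, 17 to 25 with every gene of at least 1 count, 15 to 16 with at least 10 counts in every library (31 calls) and 3 to 11 without replicate 1. The causes were not tested. DESeq2 size factors, total counts and limma-voom kept 22, 21 and 21 of the 22 calls, and all 22 kept their direction in every fit. With 4 of 4 pairs of each gene on one side, that direction had little room to turn. At most 3 replicates remained in a fit without a pair. The blocked fit is the one reported.

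Among the 60 lncRNAs named in the text, the sign turned in 14, none of them called. With DESeq2's Wald test and size factors these were Epb41l4aos (0.0069 and 0.0069) and Snhg7 (0.0037 and 0.0013); with at least 10 counts Epb41l4aos (0.0012); with every gene Snhg7 (0.0080), Epb41l4aos (0.015), Gas5 (0.0075) and Snhg5 (0.0081); with limma-voom Trp53cor1 (0.019); with no replicate block Trp53cor1 (0.037), Gm42047 (0.032), Snhg15 (0.021) and Snhg1 (0.00032); with total counts Trp53cor1 (0.012), Snhg5 (0.026), Gas5 (0.024), Epb41l4aos (0.032), Snhg7 (0.028) and Snhg15 (0.0092). With 1 pair left out the range was -0.26 to 0.013 for Gm42047, -0.25 to 0.083 for Gm56878, -0.056 to 0.044 for Gas5, -0.19 to 0.025 for Snhg1, -0.14 to 0.080 for Snhg8, -0.089 to 0.0015 for Snhg15, -0.10 to 0.087 for Snhg5, -0.19 to 0.17 for Snhg7, -0.069 to 0.36 for Snhg20, -0.21 to 0.041 for Trp53cor1, -0.15 to 0.038 for Snhg4, -0.010 to 0.34 for Mir17hg, -0.069 to 0.076 for Epb41l4aos and -0.31 to 0.46 for 1700016P03Rik.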

Other observations

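Some lncRNAs with no difference past the threshold between groups had wide ranges between replicates, and 4 of them are given here, chosen after their values were seen and not the 4 widest. 1700016P03Rik, the host of miR-212 and miR-132, was at 2.53, 7.05, 32.9 and 0.199 CPM in Mettl3-RNP libraries 1 to 4 and at 3.68, 8.55, 14.4 and 0.137 CPM in Pulsed, a range of 6.63 between replicate means on the log2 scale. Its order of replicates, 3, 2, 1 and 4 from the highest, was also that of the median immediate early gene. Gm17590, antisense to the cell cycle kinase gene Cdk6, ran from 1.22 CPM in Pulsed 3 to 33.8 CPM in Mettl3-RNP 4. Gm33280 was at 9.09 and 14.5 CPM in the libraries of replicate 3 and at 56.6 to 147 CPM in the other 6, and 2900052L18Rik, head to head with Bahcc1, at 2.04 and 1.69 CPM in replicate 3 and at 9.67 to 24.1 CPM elsewhere.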
